A study of Mus musculus with 3 samples.

Results

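The genes of the growth hormone and insulin-like growth factor (IGF) axis described here are Ghr, Stat5a, Stat5b, Socs2, Igf1 and Igfbp1. Their binding by REV-ERB alpha and by the related REV-ERB beta, nuclear receptors of the circadian clock that repress transcription, was read from 2 lists of ChIP-seq peaks (chromatin immunoprecipitation followed by sequencing). The members are peaks chosen by position, those centred in 5 windows of the mm9 assembly that hold these 6 genes, 743 kb in all. They numbered 52 of the 24461 REV-ERB alpha peaks and 52 of the 22097 REV-ERB beta peaks. The genes themselves were picked with the peaks and tag counts of these lists in view, so the number and the height of their peaks are a description and carry no test. Livers came from male C57BL/6 mice aged 20 wk, held for 3 days on a cycle of 12 hours of light and 12 hours of dark and harvested at ZT8, that is 8 hours after lights on. The groups were the antibodies, REV-ERB alpha, REV-ERB beta and none (the liver input), with 1 library each. There are no replicates, hence no error between libraries and no test of one receptor against the other. The labels name no mutant or treated animals, and they do not say whether a library came from 1 liver or from pooled livers. Whether either antibody also recognised the other receptor was not tested.

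Growth hormone from the pituitary acts on the liver through its receptor, GHR, a cytokine receptor that signals through the kinase JAK2. JAK2 phosphorylates STAT5A and STAT5B, closely related transcription factors that enter the nucleus and switch on target genes. Among these targets are Igf1, whose product is the main circulating growth factor made by the liver, and Socs2, whose product limits signalling from the growth hormone receptor. IGFBP1 is a secreted protein that binds IGF1 in the blood; its liver gene is known to fall with insulin and to rise with fasting. REV-ERB alpha and REV-ERB beta bind DNA at the hexamer AGGTCA, preferably with A and T bases before it.

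The windows differ in how much of them is gene. The window of Ghr was chr15:3247000-3560000, 313 kb for a gene of 265598 bp (gene lengths are from RefSeq, assembly GRCm38.p6). The window of Stat5a and Stat5b was chr11:100620000-100770000, 150 kb for adjacent genes of 25819 and 78274 bp, with Ghdc and Stat3 as the next coding genes on either side. The window of Socs2 was chr10:94830000-94900000, 70 kb for a gene annotated over 33419 bp between Cradd and Mrpl42. The window of Igf1 was chr10:87300000-87420000, 120 kb for a gene of 78783 bp. The window of Igfbp1 was chr11:7030000-7120000, 90 kb for a gene of only 4760 bp between Adcy1 and Igfbp3. Most of this last window therefore lay outside Igfbp1. The peaks carry mm9 positions and no mm9 gene annotation was used here, so peaks are placed in windows and not in exons, introns or promoters. A peak, site or pair named by a gene is one that lies in that gene's window, and it is not assigned to the gene.

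Promoter sequences show where the known hexamer occurs at the starts of these genes. RefSeq promoters in GRCm38.p6 were matched by symbol for 5 of the 6 genes, all but Socs2, with 8 start sites between them. The 250 bases before each start were searched on both strands for AGGTCA, for TAGGTCA (which contains AGGTCA) and for TGGGTCA (which does not). Paired forms, in which AGGTCA or TGGGTCA is followed, after any 2 bases, by AGGTCA, were searched too, as was the STAT-type palindrome TTCNNNGAA. AGGTCA was found at 4 of the 8 starts, both of Stat5a, 1 of Stat5b and that of Igf1, against 14% of all 32851 promoter sequences. These 4 are shown because they hold the hexamer. Capitals mark AGGTCA, or TGACCT where it lies on the other strand, together with TAGGTCA and TGGGTCA.

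Stat5a, first listed start, chr11:100859406-100859655, plus strand: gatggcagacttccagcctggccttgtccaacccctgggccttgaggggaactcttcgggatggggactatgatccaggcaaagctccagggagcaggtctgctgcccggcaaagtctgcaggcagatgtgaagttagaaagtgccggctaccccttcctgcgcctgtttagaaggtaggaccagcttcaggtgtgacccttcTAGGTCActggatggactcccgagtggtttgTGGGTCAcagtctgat
Stat5a, second listed start, chr11:100860234-100860483, plus strand: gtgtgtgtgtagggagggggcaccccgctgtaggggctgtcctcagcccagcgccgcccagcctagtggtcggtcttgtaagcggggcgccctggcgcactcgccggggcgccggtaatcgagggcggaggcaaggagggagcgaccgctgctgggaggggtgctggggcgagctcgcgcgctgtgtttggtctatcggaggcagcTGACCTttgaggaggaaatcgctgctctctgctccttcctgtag
Stat5b, second listed start, chr11:100822571-100822820, minus strand: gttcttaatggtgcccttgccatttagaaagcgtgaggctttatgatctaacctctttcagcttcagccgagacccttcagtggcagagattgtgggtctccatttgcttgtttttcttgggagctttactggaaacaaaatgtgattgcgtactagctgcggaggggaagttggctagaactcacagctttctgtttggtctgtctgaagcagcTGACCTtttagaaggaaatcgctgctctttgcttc
Igf1, chr10:87860861-87861110, plus strand: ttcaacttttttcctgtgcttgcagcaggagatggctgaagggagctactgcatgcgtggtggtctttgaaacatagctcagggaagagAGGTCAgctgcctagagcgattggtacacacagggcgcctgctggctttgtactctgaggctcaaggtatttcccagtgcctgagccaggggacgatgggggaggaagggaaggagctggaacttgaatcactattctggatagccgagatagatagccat

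These coordinates are in GRCm38.p6 and cannot be set beside the mm9 peaks. The first Stat5a start held TAGGTCA at 47 bases and TGGGTCA at 16 bases before the start, forms found in 2.23% and 3.24% of all promoters. The second starts of Stat5a and Stat5b held TGACCT at 44 and 35 bases before the start, inside a stretch common to both genes. Over 46 bases around it, from 15 before to 25 after, 40 were identical in the 2 genes, a comparison chosen after the sequences were seen. Igf1 held AGGTCA at 161 bases before its start. No AGGTCA was found before the starts of Ghr and Igfbp1 or before the first listed start of Stat5b. The paired forms and TTCNNNGAA were found at 0 of the 8 starts, against 0.00913% (pair starting with AGGTCA), 0% (pair starting with TGGGTCA) and 7.02% (TTCNNNGAA) of all promoters.

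Both receptors had many peaks in these windows, and the windows differed in which list had more. Alpha had 7.0 peaks per 100 kb over the 5 windows and beta also 7.0, which was 7.31 times the 0.958 per 100 kb of the whole alpha list and 7.67 times the 0.912 of the whole beta list. The windows of Stat5a and Stat5b and of Igfbp1 held more alpha than beta peaks, 19 against 13 and 10 against 7. The windows of Ghr, Igf1 and Socs2 held more beta peaks, 14 against 11, 11 against 8 and 7 against 4. Per length, alpha peaks were densest in the Stat5a and Stat5b window, at 12.7 per 100 kb, and sparsest in that of Ghr, at 3.51. Beta peaks were densest in the Socs2 window, at 10 per 100 kb, and also sparsest in that of Ghr, at 4.47. When the chromosomes with peaks in both lists were cut into consecutive stretches as long as each window, the 95th percentile of alpha peaks per stretch was 7 for the length of the Stat5a and Stat5b window, 12 for Ghr, 6 for Igf1, 4 for Socs2 and 5 for Igfbp1, with the same values for beta. The alpha counts of Ghr and Socs2 were at or below these values and the other counts lay above them. Because the genes were picked with these peaks in view, a count above the percentile is a description and no test.

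**Figure D1:**
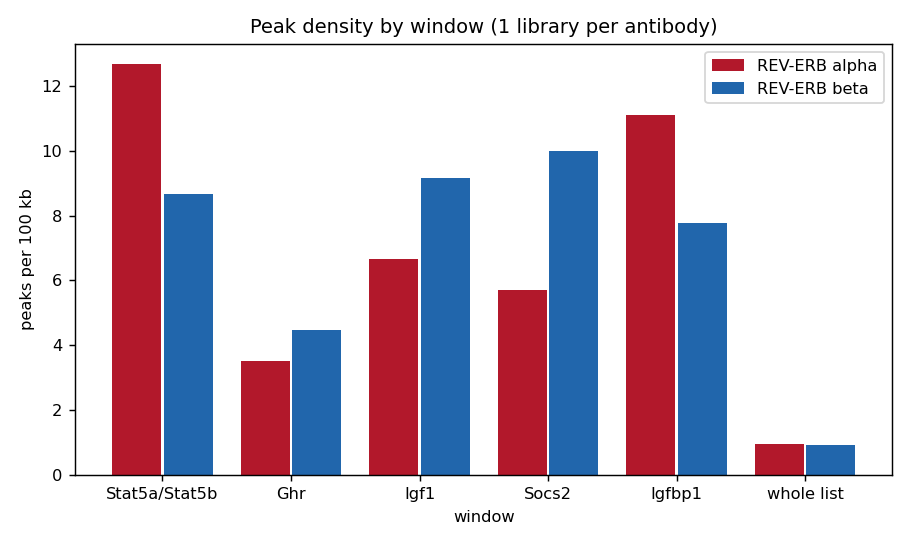
Peaks per 100 kb (vertical axis) in the 5 windows and in the whole lists, REV-ERB alpha in red and REV-ERB beta in blue, each bar from 1 library. Alpha bars are the taller ones at Stat5a and Stat5b and at Igfbp1, beta bars at Ghr, Igf1 and Socs2, and every window stands above the 0.958 and 0.912 of the whole lists.

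Of the 52 alpha peaks, 31 (59.6%) overlapped a beta peak by at least 1 bp, against a background of 57.8% of the alpha peaks outside chromosome 8, which held 0 peaks of the beta list used here. The same 31 pairs made up 59.6% of the 52 beta peaks, against 60.3% of the whole beta list. The shared fraction of these genes was thus close to that of the lists. It varied between windows: 8 of 19 alpha peaks were shared at Stat5a and Stat5b, 8 of 11 at Ghr, 6 of 8 at Igf1, 3 of 4 at Socs2 and 6 of 10 at Igfbp1. Of the beta peaks, 8 of 13, 8 of 14, 6 of 11, 3 of 7 and 6 of 7 were shared, in the same order of windows. The windows thus ranked differently by the 2 lists, and Socs2 was lowest by beta. Among the 21 alpha peaks without an overlapping beta peak, 8 (38.1%) had a beta centre within 1 kb, against 17.7% of such alpha peaks in the list. Among the 21 single-list beta peaks, 7 (33.3%) had an alpha centre within 1 kb, against 15.5%. Peaks lie closer together in these windows than in the lists at large, with a median distance to the next peak of the same list of 3813 bp against 6741 bp for alpha and 2650 bp against 5983 bp for beta, and the part of this in the 1 kb counts was not tested.

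The median member held 34.5 alpha tags against 27 in the whole list, and 57.5 beta tags against 39. With tags over input (1 added to both counts) the alpha difference turned, to 0.972 times the median of the list in place of 1.28 times. The beta median stood at 1.23 times in place of 1.47. A tag is a sequenced read assigned to the peak, which was 153 bp wide throughout the alpha list and 210 bp wide for beta. Among the top 10% of its list by tags (at least 70 alpha or 111 beta tags) stood 7 of the 52 alpha peaks, or 13.5% against a background of 10.2%, and 5 of the 52 beta peaks, or 9.62% against 10.1%. Of those 7 alpha peaks, 5 lay in the Igfbp1 window, 1 in that of Igf1 and 1 in that of Socs2. The 5 beta peaks were 2 at Igf1, 2 at Socs2 and 1 at Igfbp1. None of the peaks of Ghr, Stat5a and Stat5b reached the top 10% of either list. Mean input was 3.13 tags at the alpha members and 3.96 at the beta members, against 2.66 and 3.59 in the whole lists, and the highest input at any member was 11 tags.

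**Figure D2:**
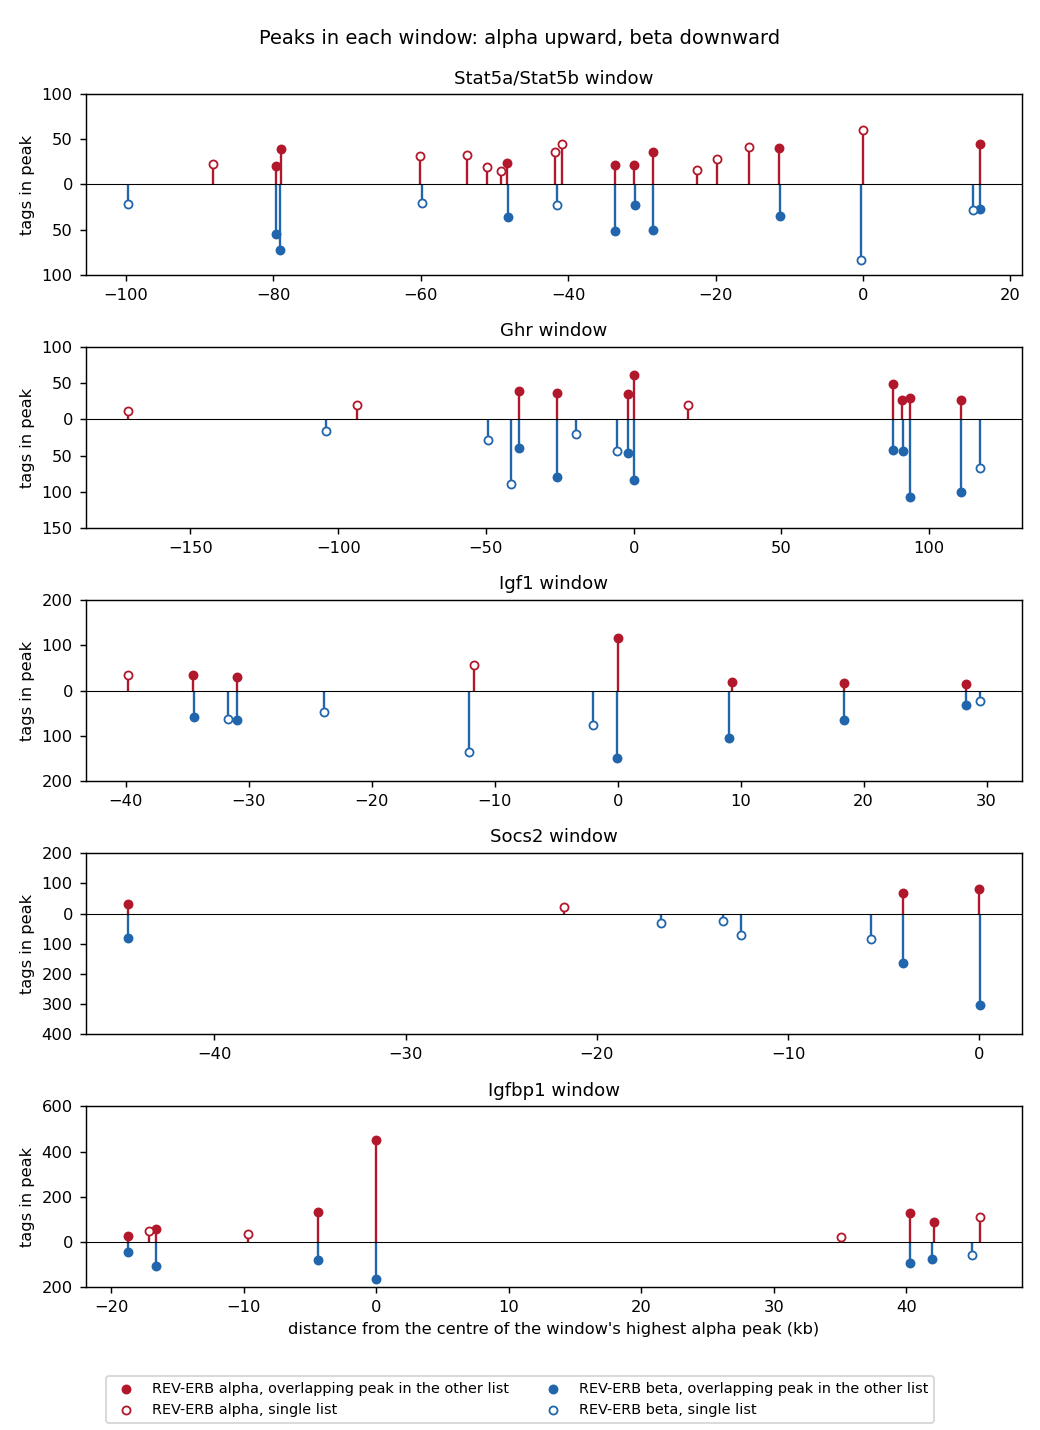
Every peak of the 5 windows, placed by its distance in kb from the centre of the window's highest alpha peak (horizontal axis), with REV-ERB alpha tags drawn upward and REV-ERB beta tags downward (vertical axes differ between panels). Filled points overlap a peak of the other list and open points do not; the Igfbp1 panel is led by an alpha peak of 452 tags and the Socs2 panel by a beta peak of 302 tags.

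Ghr, the receptor, had a spread of peaks of moderate height and a long empty stretch. Its highest alpha peak, chr15:3440973-3441125, held 61 alpha tags with 2 input tags, and the overlapping beta peak held 84. Its highest beta peak, chr15:3534457-3534667, held 107 tags with 6 input tags, against 30 alpha tags at the same place. No peak of either list lay in the 69.4 kb between 3459367 and 3528739. The alpha counts at the 8 pairs ran from 27 to 61 and the beta counts from 40 to 107. Ghr lies on the minus strand of the RefSeq table, so higher coordinates are nearer its start.

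Ratios of alpha to beta tags are given on a log2 scale on which the median over all 13314 shared peaks of the lists, 0.688 alpha tags per beta tag, is 0. This centring removes differences of depth and window size common to all sites. Values above 0 lean to alpha and values below 0 to beta. The intervals are exact (Clopper-Pearson) 95% intervals that cover counting error only, and tags at the same position need not be independent molecules.

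At Ghr the 2 pairs with the highest coordinates leaned to beta. The pair at chr15:3534458-3534610 held 30 alpha and 107 beta tags, a log2 ratio of -1.29 (-1.93 to -0.70). The pair at chr15:3551821-3551973 held 27 alpha and 100 beta tags, a log2 ratio of -1.35 (-2.02 to -0.72). The other 6 pairs lay within 2-fold of the median, from -0.57 to 0.76, and 4 of the 8 lay above 0. The highest of them, chr15:3528689-3528841, held 49 alpha and 42 beta tags. By unique positions, which count each tag position once, its ratio was 1.22, past 2-fold. The median of the 8 pairs was -0.04. Its tallest single-list peak was a beta peak of 89 tags at chr15:3399582-3399792, 2646 bp from the nearest alpha centre. The 3 single-list alpha peaks were low, with 12, 20 and 20 tags.

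Stat5a and Stat5b, the signal transducers, had the largest number of alpha peaks of any of these windows, and all were low to moderate. The 19 alpha peaks held 15 to 60 tags with a median of 32, and the 13 beta peaks held 21 to 84 tags with a median of 35. The tallest peaks of both lists stood side by side without overlapping: an alpha peak of 60 tags (8 input tags) at chr11:100732012-100732164 and a beta peak of 84 tags (3 input tags) at chr11:100731723-100731933, with centres 260 bp apart. They are therefore the tallest single-list peaks of the window as well. Of the 11 single-list alpha peaks, 5 had a beta centre within 1 kb, the closest at 187 bp (32 alpha and 21 beta tags). In the whole alpha list outside chromosome 8 this share was 17.7%. The 5 are not separate sites: the alpha peaks at chr11:100690173-100690325 and chr11:100691114-100691266 had the same nearest beta peak. The beta peak nearest to chr11:100682961-100683113 overlapped another alpha peak.

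The 8 pairs at Stat5a and Stat5b leaned to beta at one end of the window and to alpha at the other. At the low-coordinate end, the pair at chr11:100652431-100652583 held 20 alpha and 55 beta tags, a log2 ratio of -0.92 (-1.74 to -0.16). By unique positions its ratio was -1.05, past 2-fold to beta. At the high-coordinate end, the pair at chr11:100747831-100747983 held 45 alpha and 27 beta tags, a log2 ratio of 1.28 (0.56 to 2.02), with 0 input tags in either window. It was the only pair here past 2-fold by tags. Next to it in order, the pair at chr11:100720681-100720833 held 40 alpha and 35 beta tags, a log2 ratio of 0.73 (0.04 to 1.43). The remaining 5 pairs lay between -0.67 and 0.48, and their intervals all included 0. The median of the 8 was 0.01. In the RefSeq order Stat5b precedes Stat5a and Stat3 follows, so the high-coordinate end is the side of Stat5a and Stat3.

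Socs2, the feedback inhibitor, carried the highest beta peak of the 5 windows. The beta peak at chr10:94892974-94893184 held 302 tags with 8 input tags and stood at rank 115 of the beta list. The overlapping alpha peak, at chr10:94892996-94893148, held 81 tags with 6 input tags and stood at rank 1720 of the alpha list. The log2 ratio was -1.36 (-1.73 to -1.0), or -1.23 by unique positions. The next pair toward lower coordinates, at chr10:94888981-94889133, held 69 alpha and 165 beta tags, a log2 ratio of -0.72 (-1.14 to -0.30). The third pair, at chr10:94848497-94848649, held 32 alpha and 80 beta tags, a log2 ratio of -0.78 (-1.42 to -0.17). All 3 pairs lay below 0 with intervals that left 0 out.

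The single-list peaks of Socs2 were also mostly beta peaks. There were 4, of 24 to 85 tags, the tallest at chr10:94887284-94887494 with 10 input tags. The 1 single-list alpha peak, at chr10:94871269-94871421, held 22 tags. Summed over all peaks of the window, Socs2 had 204 alpha and 757 beta tags, 0.27 alpha tags per beta tag. In the same sums Igf1 had 0.394, Ghr 0.443, Stat5a and Stat5b 1.13 and Igfbp1 1.79. These sums move with how many peaks each list called, so they are given as levels only.

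Igf1, the growth factor gene, had 1 strong site of both receptors and a series of sites lower in alpha. At chr10:87360230-87360382 the alpha peak held 116 tags with 6 input tags (rank 610) and the beta peak 149 tags with 4 input tags (rank 1129). Its log2 ratio of 0.18 (-0.18 to 0.54) did not depart from the median of all shared peaks beyond counting error. This pair was the tallest of the window in both lists. The other 5 pairs all lay below 0. Of these, 2 were past 2-fold: chr10:87369496-87369648 with 19 alpha and 104 beta tags, a log2 ratio of -1.91 (-2.70 to -1.20), and chr10:87378648-87378800 with 16 alpha and 64 beta tags, a log2 ratio of -1.46 (-2.35 to -0.65). The first of these had centres 175 bp apart, the widest of the 31 pairs, and its peaks overlapped by only 7 bp. The other 3 lay at -0.25, -0.55 and -0.55 with intervals that included 0.

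Igf1 had further beta peaks without an overlapping alpha peak. The tallest, at chr10:87348152-87348362, held 135 tags with 1 input tag and stood among the top 10% of the beta list. An alpha peak of 57 tags with 11 input tags had its centre 343 bp away, and it was the tallest single-list alpha peak of the window. The other 4 single-list beta peaks held 23 to 77 tags. Beyond the last peaks of the window, both lists were empty for a long way: the next peaks, of 22 alpha and 33 beta tags, lay 546954 and 546967 bp past the window's border.

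Igfbp1, the IGF-binding protein gene with its upstream region, carried the 3 tallest alpha peaks of the 5 windows. The alpha peak at chr11:7052552-7052704 held 452 tags with 2 input tags and stood at rank 2 of the whole alpha list. The beta peak there held 163 tags with 6 input tags and stood at rank 910 of its list, where it was also the tallest of the window. The alpha peak alone held 41.1% of the 1101 alpha tags of the window. It had 193 unique positions, so 2.34 tags per position, against a median of 1.17 in the alpha list. The log2 ratio was 2.01 (1.75 to 2.28) by tags and 0.99 by unique positions (193 alpha and 103 beta), just under 2-fold.

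The other Igfbp1 pairs fell into 2 near the median and 3 that leaned to alpha. The gene lies on the plus strand of the RefSeq table, so lower coordinates are upstream. The 2 pairs with the lowest coordinates held 25 alpha and 42 beta tags (log2 -0.21) and 57 alpha and 106 beta tags (log2 -0.35), and both intervals included 0. The pair at chr11:7048181-7048333, next to the tallest site, held 133 alpha and 81 beta tags, a log2 ratio of 1.26 (0.85 to 1.67), or 1.07 by unique positions. Beyond the tallest site, toward higher coordinates, came a gap of 35.1 kb with no peak of either list. It ended at a single-list alpha peak of 24 tags at chr11:7087630-7087782. The next pair was chr11:7092813-7092965, with 128 alpha and 94 beta tags and a log2 ratio of 0.99 (0.59 to 1.39). It was followed by chr11:7094633-7094785, with 87 alpha and 74 beta tags and a log2 ratio of 0.77 (0.31 to 1.24). The last alpha peak, at chr11:7098078-7098230, held 113 tags with 1 input tag and overlapped no beta peak. The only single-list beta peak of the window, with 56 tags, had its centre 562 bp from it. Past the window's border the next alpha peak lay 390170 bp away and the next beta peak 538998 bp away.

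**Figure D3:**
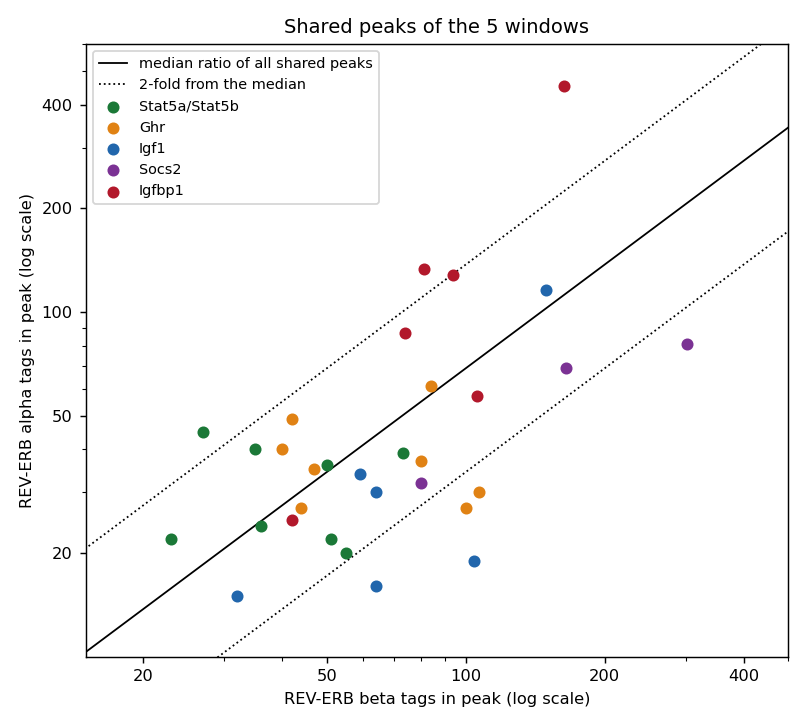
REV-ERB alpha tags against REV-ERB beta tags (both axes logarithmic) at the 31 shared peaks, coloured by window, with the median ratio of all shared peaks as a solid line and 2-fold from it as dotted lines. The site of 452 alpha tags in the Igfbp1 window stands far above the upper dotted line, and the site of 302 beta tags in the Socs2 window below the lower one.

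Over all 31 pairs, 3 were at least 2-fold to alpha (9.68%, against 8.4% of all shared peaks) and 5 at least 2-fold to beta (16.1%, against 9.71%). The 3 were 2 pairs of Igfbp1 and 1 of Stat5a and Stat5b. The 5 were 2 of Ghr, 2 of Igf1 and 1 of Socs2. Intervals lay wholly above 0 at 7 pairs (22.6%, background 17.9%) and wholly below at 8 (25.8%, background 21.5%). By unique positions 3 pairs were past 2-fold to alpha (background 6.53%) and 6 to beta (background 7.64%), but the 3 differed from those by tags: the tallest Igfbp1 site dropped out and a Ghr pair came in. To beta, the low-coordinate end pair of Stat5a and Stat5b joined the 5 by tags. The split of pairs past 2-fold was 6 to alpha and 7 to beta with tags over input, and 4 and 2 with density over the surroundings. No share over all shared peaks is at hand for these measures. Their counts can therefore not be read as more or less leaning than those by tags. The median over the 31 pairs was -0.21, and the windows lay on either side of it. The medians by window were 0.88 for Igfbp1, 0.01 for Stat5a and Stat5b, -0.04 for Ghr, -0.55 for Igf1 and -0.78 for Socs2. Density over the surroundings sets the tags in the peak against all other tags around it, those of neighbouring listed peaks included. By this measure the Igf1 median turned to 0.08, that of Igfbp1 shrank to 0.04 and that of Ghr became 0.44. That of Socs2 stayed below 0 at -0.60. With tags over input the medians were 0.52 for Igfbp1, -1.14 for Igf1 and -1.04 for Socs2. Among consecutive stretches of the genome of the same length with at least 3 shared peaks, the quartiles of the medians ran from -0.37 to 0.27 for the length of the Igfbp1 window, -0.37 to 0.27 for that of Igf1 and -0.40 to 0.27 for that of Socs2. The 5th and 95th percentiles were -0.89 and 0.75 for the length of Igfbp1, -0.87 and 0.75 for Igf1 and -0.89 and 0.75 for Socs2. The Igfbp1 median lay above that range, and those of Igf1 and Socs2 lay inside it. Because the genes were picked with the tag counts in view, this placing is a description and no test. The difference between windows was not tested, because each rests on the same 2 libraries.

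**Figure D4:**
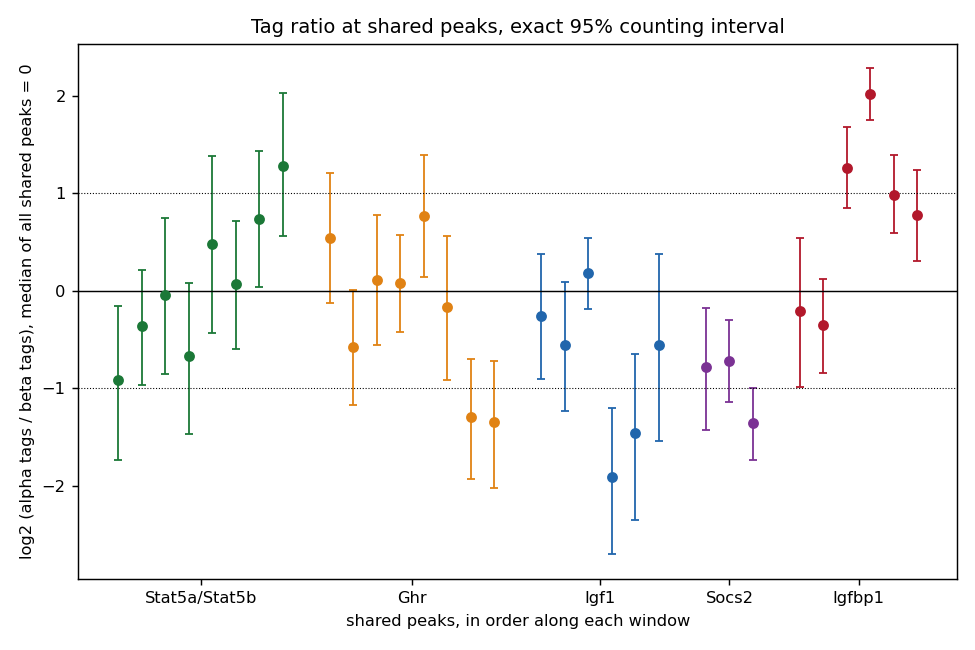
Log2 ratio of alpha to beta tags at the 31 shared peaks (vertical axis, 0 is the median of all shared peaks), in order along each window, with exact 95% counting intervals as bars and 2-fold as dotted lines. Socs2 lies wholly below 0, Igf1 has 5 of 6 pairs below 0, and the last 4 pairs of Igfbp1 lie above 0.

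The tags around the peaks leaned to the same side as the peaks at all 6 pairs of Igfbp1 and at 5 of the 6 pairs of Igf1. For each pair, the tags in the surrounding 10 kb were counted without those of any listed peak of the same list centred within 5 kb, and the ratio was again centred on all shared peaks. At the tallest Igfbp1 site 590 alpha and 324 beta tags remained, a log2 ratio of 0.76. At the other 3 alpha-leaning Igfbp1 pairs it was 0.87, 0.72 and 0.98, and at the 2 pairs with the lowest coordinates -0.26 and -0.34. All 6 Igf1 pairs lay below 0, from -1.0 to -0.27. All 8 Ghr pairs lay below 0 as well, from -0.94 to -0.22, although 4 of them leaned to alpha in the peak. At Socs2 the 2 tall pairs lay at -0.40 and -0.57, and the third, which leaned to beta in the peak, at 0.53 with only 79 alpha and 51 beta tags. At the alpha-leaning end of the Stat5a and Stat5b window the surroundings stood at 1.13, with 312 alpha and 133 beta tags. At the beta-leaning end of that window they stood at 0.05, against -0.92 in the peak. Further pairs there with opposite signs had -0.36, 0.48 and 0.07 in the peak and 0.15, -0.58 and -0.52 around it. The other pairs of the window leaned to the same side in both. Across the 31 pairs the ratio in the peak and the ratio around it had a Pearson r of 0.67 and a Spearman rho of 0.54, against 0.39 and 0.38 over all shared peaks. These are descriptions: all points come from the same 2 libraries, and neighbouring pairs share part of their surroundings. The part of the surroundings in the ratios was not tested.

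**Figure D5:**
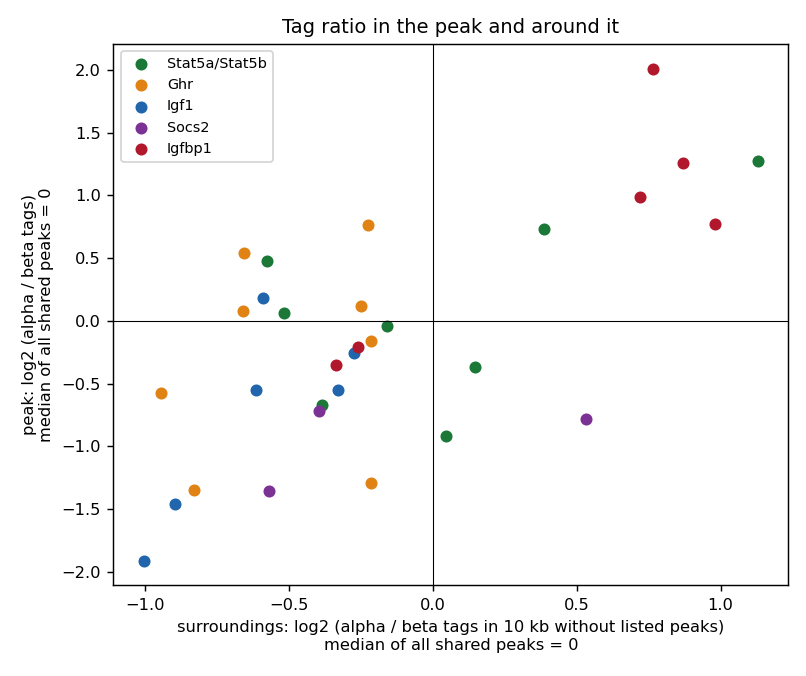
Log2 ratio of alpha to beta tags in the peak (vertical axis) against that in the surrounding 10 kb without listed peaks (horizontal axis) for the 31 shared peaks, both centred on all shared peaks. The 4 alpha-leaning Igfbp1 pairs and the end pair of Stat5a and Stat5b lie at the upper right, and the Igf1 pairs lie at the left.

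Tag counts of the receptors at the 31 pairs had a Pearson r of 0.56 on the log2 scale and a Spearman rho of 0.47, against 0.66 and 0.63 over all shared peaks. The centres of the pairs lay a median of 26 bp apart (range 1 to 175), against 28 bp over all shared peaks. The 3 pairs of Socs2 lay 4, 7 and 30 bp apart.

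The borders of the windows decide the membership of a few sites. Within 10 kb outside them lay 4 alpha and 3 beta peaks. Just past the Socs2 window, 1627 and 1881 bp from its border, were an alpha peak of 37 tags and a beta peak of 202 tags, at chr10:94901551-94901703 and chr10:94901776-94901986. Just past the Ghr window, 8509 and 8476 bp from its border, were peaks of 69 alpha tags (chr15:3568433-3568585) and 181 beta tags. Just inside these borders were the tall Socs2 pair (81 alpha and 302 beta tags) and, for Ghr, an alpha peak of 27 and a beta peak of 67 tags. Over all borders the first peak inside held 12 to 113 alpha and 16 to 302 beta tags, and the first peak outside 13 to 69 alpha and 17 to 202 beta tags.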

How the data were processed

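Peaks of both receptors were taken from 1 deposited ChIP-seq list per antibody. Per the labels' protocols, chromatin was fixed for 30 minutes in 2 mM disuccinimidyl glutarate and 10 minutes in 1% formaldehyde. Bowtie and HOMER were used with mm9, per the submitters' processing notes; software versions, filters on reads and the number of tags in each library were not given in the sources used here. Per the file headers, the authors deposited raw counts of tags in the peak window, at unique positions, in 10 kb around the peak and in the input. The deposited peak score had a lowest value of 14 for alpha and 12 for beta, and the deposited FDR, a false discovery rate like a q-value, is 0 in every row and was not used.

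Peaks centred in the windows were selected, and peaks overlapping by at least 1 bp were paired by nearest centre. Ratios, their centre and all backgrounds were computed over the whole lists. With 1 library per antibody, 2-fold from the median ratio took the place of a test. Named sites were, per window, the tallest peak of each list, shared peaks in the top 10% of either list or past 2-fold, and the tallest single-list peaks; other pairs at a window's ends are named as positions chosen after their values were seen, and the surroundings and stretches were added then too. The members and lists were chosen with earlier results of these data known. The planned list of other pathway genes and the motif search in peaks need mm9 annotation or sequence, not used here. Pairing and ratios were tested on simulated data. Software was scipy 1.17.1, pandas 2.3.3 and numpy 2.4.6 under Python 3.11.15.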

Additional observations from a re-analysis of the deposited data

How the results depend on the processing

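Of 37 recomputed values under the alternatives, 32 kept their sign and stayed within the main value's interval or, for counts, within 1.5 times the main count. Of the other 5, 1 changed sign within the interval and 4 lay outside these limits. Of the 52 alpha peaks, 30 had at least 8 times as many tags as input tags after 1 was added to both counts. Of the 52 beta peaks, 35 did. No share over the whole lists is at hand for this filter, so these counts cannot be read as low or high. With tags over input, 6 pairs in place of 3 were at least 2-fold to alpha. The 2-fold counts with tags over input and with density have no share over all shared peaks beside them. The median alpha member stood at 0.972 times the median of its list with tags over input, in place of 1.28. With density over the surrounding 10 kb, 2 pairs in place of 5 were at least 2-fold to beta, and the median log2 ratio of the 31 pairs was 0.13 in place of -0.21. The medians of Igf1 and Ghr also changed sign with density, and those of Ghr (0.09 with the centre above the median height) and of Stat5a and Stat5b (-0.10 with tags over input, -0.08 with density) moved about 0. The main interval of the median of the 31 pairs ran from -0.57 to 0.18. It was taken from the ranked values of the pairs and is not a Clopper-Pearson interval. Like the other main intervals here, it treats neighbouring sites of the same libraries as separate. It therefore describes the spread among sites and holds no error between libraries. The cause of the changes between settings was not tested. The shared fraction of alpha peaks ran from 50% with at least 50% of both peaks overlapping to 67.3% with centres within 500 bp. No paired analysis was possible because there is a single library for every antibody, and for that reason none could be omitted either. Peaks near the lowest score held few tags, so a member absent from a list is not shown to be unoccupied.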
